A study of Macaca fascicularis with 22 samples.

Results

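The 10 genes described here encode the troponins of striated muscle and its actins. They were picked by name, through the human RefSeq accession that the array annotation gives each probe. Troponin C is encoded by TNNC1 (NM_003280) and TNNC2 (NM_003279). Troponin I is encoded by TNNI1 (NM_003281), TNNI2 (NM_003282) and TNNI3 (NM_000363), and troponin T by TNNT1 (NM_003283), TNNT2 (NM_000364) and TNNT3 (NM_006757). ACTA1 (NM_001100) and ACTC1 (NM_005159) encode the skeletal and cardiac alpha-actins. All 10 were found, each with 1 probe of the 20217 on the array, and all 10 were among the 17117 probes that were bright enough to be tested.

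Troponin is the calcium switch of the sarcomere. Troponin C binds calcium, troponin I holds back the interaction of actin with myosin, and troponin T ties the complex to tropomyosin on the actin filament. Slow, fast and cardiac forms are made from separate genes, and muscle fibres are known by the forms they carry. TNNC1 serves both slow skeletal and cardiac muscle, and the cardiac forms TNNT2 and ACTC1 are also known from skeletal muscle early in development, before the adult forms replace them.

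RNA from cynomolgus macaque neonates (Macaca fascicularis) was hybridised to 22 single-colour arrays designed for the rhesus macaque. Animals of lower birth weight (LBW, the 5th to 25th centile) were compared with animals of average birth weight (ABW, the 50th to 75th centile), on 4 arrays per group of skeletal muscle, 4 per group labelled umbilical cord and 3 per group labelled liver. The sample titles name the biceps as the muscle. Per the methods of the study all neonates had the same father, and both birth weight groups lay within the normal range. The labels give birth as the time of sampling, while the methods of the study place the collection of liver and muscle on the fifth day of life. Whether the same-numbered arrays of different tissues came from one animal is not stated.

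Levels are given as the log2 of the signal over the 75th percentile of the same array, so that 0 is that percentile and 1 unit is a doubling. Because probes differ in brightness, a level is compared between arrays for 1 gene and not between genes. The 75th percentile itself lay between 315.49 and 2390 signal units. For muscle the ABW arrays shared 1 slide and the LBW arrays a second one. Under the umbilical cord label the LBW arrays lay on slide 5 and the ABW arrays on slides 4 and 6. Slide 6 was read with the other version of the scanner software, 10.5.1.1. For muscle and under the umbilical cord label, an effect of the slide and one of birth weight cannot be told apart. Under the liver label the ABW arrays and LBW replicate 1 lay on slide 3, and LBW replicates 2 and 3 on slide 4. There the slide and birth weight can be told apart only in part. The arrays labelled liver and umbilical cord went against their labels. Of 13 accessions of hepatocyte genes, all 13 were well above background on every array labelled umbilical cord (summed level 10.17 to 11.82) and 4 on every array labelled liver (summed level -0.63 to 0.52). The summed level of 5 smooth muscle accessions was 9.65 to 9.93 on the arrays labelled liver and 2.12 to 3.81 on those labelled umbilical cord. These arrays are therefore named by label only, and nothing is said of liver or cord as tissues.

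The skeletal muscle label held. The troponins other than TNNT2, and ACTA1, were higher on all 8 muscle arrays than on all 14 others. The values of TNNT2 overlapped between all 3 labels, and those of ACTC1 between muscle and the liver label. In limma's fit of the 6 groups, 8 of the 10 genes were called higher in muscle than on the arrays labelled liver, and 9 of the 10 than on those labelled umbilical cord (adjusted p under 0.05). Over all probes tested, 37.1% and 35.8% were called higher in muscle in these comparisons, and 28.1% and 29.1% lower, where none of the 10 genes was.

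**Figure D1:**
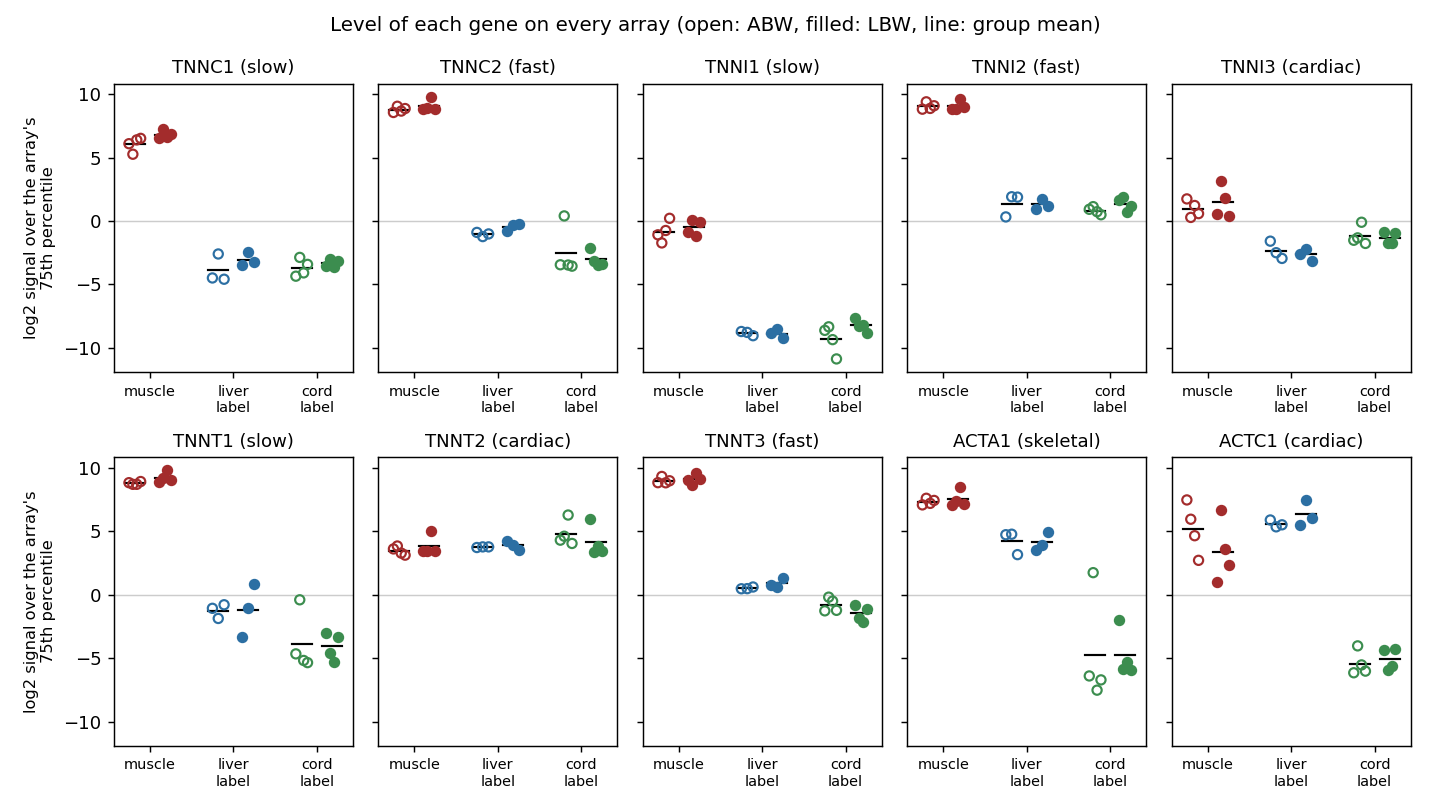
Level of the 10 genes on all 22 arrays, as log2 of the signal over the array's 75th percentile. Open circles are ABW arrays, filled circles LBW arrays and lines group means. Each panel is to be read across labels for its own gene. TNNT2 overlaps between all columns, ACTC1 spreads over 6.48 units in muscle, and ACTA1 on the arrays labelled umbilical cord runs from -7.52 to 1.74.

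Troponin C, the calcium sensor, was higher in muscle in both of its forms. TNNC1, its slow and cardiac form, ranged from 5.26 to 7.25 in muscle, from -4.59 to -2.48 on the arrays labelled liver and from -4.35 to -2.87 on those labelled umbilical cord. The excess in muscle was 9.91 ± 0.31 (SE) over the first of these labels (adjusted p = 9.48e-16) and 9.94 ± 0.29 over the second (adjusted p = 9.47e-17). The ranges of the other labels overlapped each other, and their difference of -0.03 ± 0.31 was within its error. TNNC2, the fast form, ranged from 8.55 to 9.78 in muscle, from -1.23 to -0.21 on the arrays labelled liver and from -3.56 to 0.40 on those labelled umbilical cord. Its differences were 9.67 ± 0.46 (adjusted p = 3.52e-13) and 11.70 ± 0.43 (adjusted p = 2.43e-15), and in this gene the arrays labelled umbilical cord lay below those labelled liver by 2.03 ± 0.46 (log2 difference -2.03, adjusted p = 0.000637).

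The inhibitory subunit, troponin I, was higher in muscle in all 3 of its forms. TNNI2 ranged from 8.81 to 9.62 in muscle, from 0.32 to 1.91 on the arrays labelled liver and from 0.49 to 1.89 on those labelled umbilical cord, where it was well above background on every array. Muscle exceeded these by 7.72 ± 0.26 and 7.97 ± 0.24 (adjusted p = 1.65e-15 and 1.14e-16). TNNI1, the slow form, was well above background on all 8 muscle arrays, at -1.73 to 0.21, and on none of the 14 others. A fold change is therefore only a bound. It was taken against the lowest signal that counted as well above background on each dim array, or the measured signal where that was higher. That lowest signal is not a strict limit of detection. On ABW replicate 4 labelled umbilical cord it was 1.251, and TNNI1 read 1.28 without being well above background. By this bound, in the main processing TNNI1 was at least 99.7-fold higher in muscle than on the arrays labelled liver. Against those labelled umbilical cord the bound was 148-fold. The size of this excess depends on the processing. Over the alternatives, the lowest log2 differences were 3.43 and 3.10, and all were called. TNNI3, the adult cardiac form, was measurable on every array, at 0.28 to 3.18 in muscle, -3.15 to -1.59 on the arrays labelled liver and -1.77 to -0.10 on those labelled umbilical cord. The excess in muscle was 3.72 ± 0.40 (adjusted p = 8.29e-08) and 2.47 ± 0.37 (adjusted p = 5.99e-06), the least of the 3 troponin I genes. TNNI3 was also the sole one of the 10 genes that was called higher on the arrays labelled umbilical cord than on those labelled liver (1.25 ± 0.40, adjusted p = 0.00952, against 35.6% of all probes called in that direction).

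Troponin T, the subunit that holds the complex to tropomyosin, held both the widest and the narrowest contrast among the troponins. TNNT1, the slow form, ranged from 8.70 to 9.79 in muscle, from -3.34 to 0.82 on the arrays labelled liver and from -5.35 to -0.40 on those labelled umbilical cord. Its excess in muscle was 10.22 ± 0.67 and 12.98 ± 0.62 (adjusted p = 6.03e-11 and 2.08e-13). TNNT3, the fast form, ranged from 8.61 to 9.60 in muscle, from 0.47 to 1.33 on the arrays labelled liver and from -2.14 to -0.19 on those labelled umbilical cord. Those 3 ranges did not overlap, and muscle was higher by 8.32 ± 0.23 and 10.17 ± 0.22 (adjusted p = 1.29e-16 and 1.62e-18).

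TNNT2, the cardiac form, behaved differently from its relatives. It read 3.61, 3.84, 3.28 and 3.12 in ABW muscle and 3.48, 3.44, 5.02 and 3.41 in LBW muscle. Under the liver label it lay between 3.55 and 4.27, and under the umbilical cord label between 3.37 and 6.28. The ranges overlapped, with differences of -0.19 ± 0.40 (95% interval -1.02 to 0.64, adjusted p = 0.697) between muscle and the first label and -0.83 ± 0.37 (-1.60 to -0.06, adjusted p = 0.055) between muscle and the second. The latter was called under 9 of 33 alternatives. Among them were normexp background correction (adjusted p = 0.0358 in limma), median scaling (0.0399), spike-in scaling (0.000818) and a random slide block (0.0469). Leaving out skeletal muscle LBW replicate 3 (0.017) was another. Muscle was therefore not shown to be equal to the arrays labelled umbilical cord.

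The actins ran through the labels in their own order. ACTA1, the main actin of adult skeletal muscle, ranged from 7.04 to 8.47 in muscle and from 3.16 to 4.93 on the arrays labelled liver, and muscle was higher by 3.25 ± 1.03 (adjusted p = 0.00952). ACTA1 ranged from -7.52, where it was not well above background, to 1.74 on the arrays labelled umbilical cord, and the difference from muscle was 12.17 ± 0.96 (adjusted p = 5.46e-10). ACTC1, the cardiac actin, read 5.89, 5.35 and 5.51 on the ABW arrays labelled liver and 5.53, 7.43 and 6.03 on the LBW ones. These lay inside the range of the muscle arrays, 0.99 to 7.47. Muscle minus the arrays labelled liver was -1.66 ± 0.75 (95% interval -3.22 to -0.10, adjusted p = 0.0577), a value that was called under normexp background correction (adjusted p = 0.0454), quantile normalization (0.00949), spike-in scaling (0.000733) and a random slide block (0.0484), and without skeletal muscle ABW replicate 1 (0.0185) or LBW replicate 2 (0.00484). On the arrays labelled umbilical cord ACTC1 ranged from -6.15 to -4.03, and muscle was higher by 9.53 ± 0.69 (adjusted p = 1.56e-10).

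Between the labels umbilical cord and liver the difference of the actins exceeded that of any troponin. ACTC1 differed by -11.19 ± 0.75 (adjusted p = 4.78e-11) and ACTA1 by -8.92 ± 1.03 (adjusted p = 2.03e-07), against -2.76 ± 0.67 for TNNT1 and -1.85 ± 0.23 for TNNT3. With TNNC2 these were the 5 genes called lower on the arrays labelled umbilical cord, where 31.3% of all probes were called. Both smooth muscle actin accessions on the array, NM_001613 and NM_001615, moved with the striated actins, with a summed level of 8.89 to 9.23 on the arrays labelled liver, 1.24 to 2.85 on those labelled umbilical cord and 1.42 to 2.93 in muscle. Actin genes share nearly all of their protein sequence, and the part of cross-hybridisation between actin probes in these values was not tested. Within the slide that held both labels (2 arrays of each), the differences were -11.82 for ACTC1 and -1.71 for TNNT3, both called. Those of -6.74 for ACTA1, -2.41 for TNNT1, -1.25 for TNNC2 and 1.25 for TNNI3 were not called. On that slide the arrays labelled umbilical cord were ABW and those labelled liver LBW, so label and birth weight cannot be told apart there. The arrays labelled umbilical cord included ABW replicate 2, which read far above its group in ACTA1, TNNC2 and TNNT1.

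Other sarcomere genes, grouped in lists by what they are known to encode, followed the muscle label. Of 11 accessions of fast fibre genes, all 11 were higher in muscle than on the arrays labelled liver, with a median difference of 11.22. For slow fibre genes 6 of 8 were higher and 1 lower (median 10.88), and for sarcomere genes shared by the fibre types 14 of 15 were higher (median 9.37), where the median of all probes was 0.21. Against the arrays labelled umbilical cord the counts were 11 of 11, 7 of 8 (1 lower) and 15 of 15. Of 7 accessions of developmental and cardiac genes, 4 were higher and 1 lower in muscle than on the arrays labelled liver, and the median was 0.64. All these counts are of accessions called at an adjusted p under 0.05. Over all probes, 37.1% were called higher and 28.1% lower in muscle than on the arrays labelled liver. Against the arrays labelled umbilical cord these shares were 35.8% and 29.1%. In bulk RNA, fewer cells of a type and less of an RNA per cell cannot be told apart.

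Over the 22 arrays, the mean level of the fast troponins ran most closely with NM_001002811 (Pearson r = 0.9951), the probe A_01_P001771 (0.9946), NM_001042 (0.9943), NM_000366 (0.9935) and NM_031886 (0.9932). For the mean of the slow troponins these were NM_152263 (0.9949), NM_000366 (0.9932), NM_152372 (0.9931), NM_006063 (0.9931) and NM_013353 (0.9930). NM_000366 was on both lists. The arrays fall into muscle and the rest, and these coefficients describe that step rather than any variation within muscle.

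In skeletal muscle LBW and ABW neonates were compared within the tissue. Of the 10 genes, none differed at an adjusted p under 0.05 in limma, as was true of all probes (0%). With the threshold of the study, an unadjusted p under 0.05 and a difference over 1.5-fold, TNNC1 alone was called (1 gene, higher in LBW, where 9.7% of all probes were called in that direction). That call was made under 11 of 22 alternatives. It was lost under median, quantile and spike-in scaling, without scaling, with the spread of all 6 groups, with the replicate number as a block and in the methods' t-test, which called none of the 10, and also without ABW replicate 1 or 2 or LBW replicate 2 or 4. Without LBW replicate 2, ACTC1 (lower in LBW) was called in its place. The values of 9 genes lay above 0 and the median of the 10 was 0.32, against 0.07 over all probes. In none of the 10 were the birth weight groups fully apart, as they were in 10.5% of all probes.

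TNNC1 read 6.09, 5.26, 6.39 and 6.51 in the ABW animals and 6.50, 7.25, 6.58 and 6.88 in the LBW animals. The groups overlapped by a narrow margin, with 3 of 4 LBW arrays above all ABW arrays. The difference was 0.74 ± 0.30 (95% interval 0.05 to 1.42), or 1.67-fold, with an adjusted p of 0.304 in limma. Across all alternatives and left-out arrays it stayed between 0.28 and 0.89.

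The other slow troponins had smaller values that passed neither the adjusted threshold nor that of the study. TNNT1 reached an unadjusted p under 0.05 only among the alternatives. TNNT1 read 8.83, 8.70, 8.70 and 8.92 in ABW and 8.87, 9.17, 9.79 and 9.04 in LBW muscle, a difference of 0.43 ± 0.22 (95% interval -0.07 to 0.93, adjusted p = 0.417). TNNI1 read -1.09, -1.73, -0.75 and 0.21 in ABW and -0.89, 0.07, -1.15 and -0.07 in LBW muscle, a difference of 0.33 ± 0.43 (-0.65 to 1.31, adjusted p = 0.775). In both genes the groups overlapped.

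The fast troponins lay close together in the birth weight groups. TNNC2 read 8.55, 9.04, 8.66 and 8.86 in ABW and 8.84, 8.93, 9.78 and 8.79 in LBW muscle, and differed by 0.31 ± 0.25 (-0.26 to 0.88). TNNI2 differed by 0.04 ± 0.23 (-0.49 to 0.56) and TNNT3 by 0.10 ± 0.24 (-0.44 to 0.64), with adjusted p between 0.618 and 0.961 for the fast forms. The sign of TNNI2 turned under median scaling, quantile normalization, spike-in scaling and without scaling, and that of TNNT3 under all of these but median scaling. ACTA1 differed by 0.18 ± 0.31 (-0.53 to 0.89, adjusted p = 0.834).

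**Figure D2:**
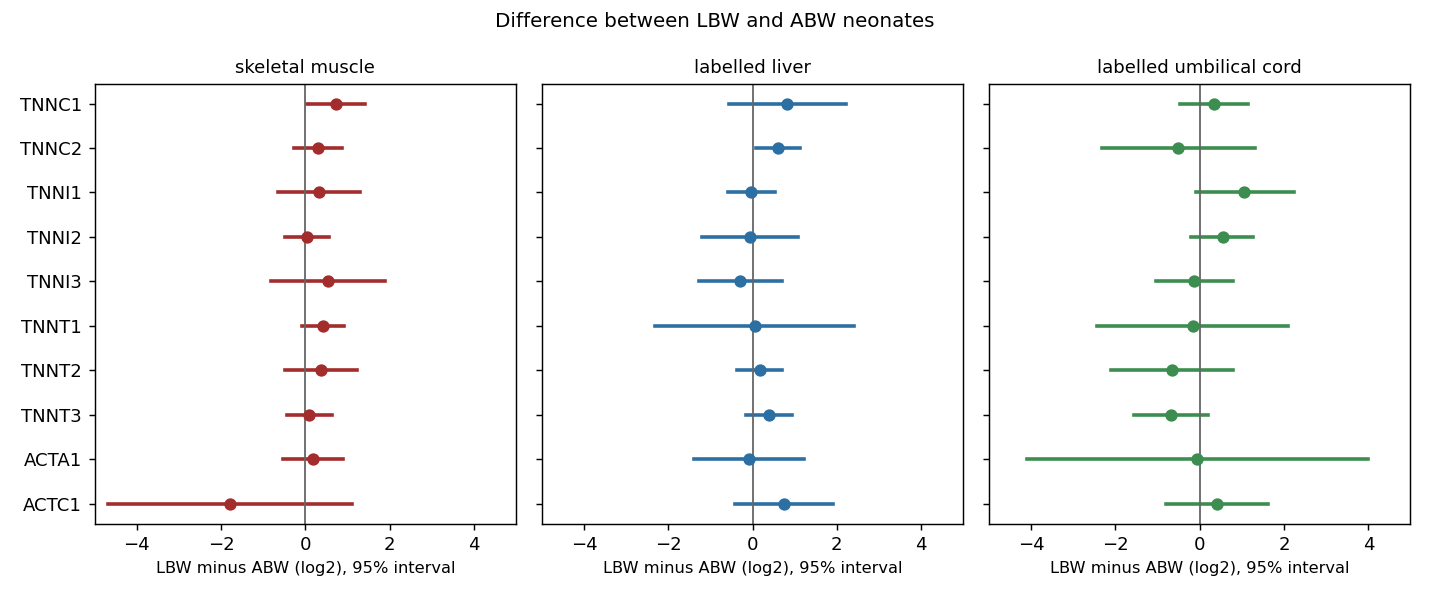
Difference of LBW minus ABW for the 10 genes (points, log2) with 95% intervals (bars) from limma, in skeletal muscle and under the other labels. All intervals cover 0 except those of TNNC1 in muscle (0.05 to 1.42) and TNNC2 on the arrays labelled liver (0.09 to 1.13), and neither gene passed after adjustment.

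Among the cardiac forms, ACTC1 stood out for how far single animals differed. It read 7.47, 5.95, 4.65 and 2.71 in ABW muscle and 0.99, 6.67, 3.57 and 2.38 in LBW muscle. The highest animal was 89.5-fold above the lowest, and the 2 spots of the probe differed by no more than 0.073 on any muscle array. Its SD within groups was 2.23, larger than that of 99.7% of all probes, whose median was 0.38. The difference between the groups, -1.79 ± 1.28 (-4.68 to 1.10, adjusted p = 0.562), was smaller than that SD. Its partner ACTA1 had an SD of 0.49 on the same arrays.

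TNNI3 also varied between animals, at 1.74, 0.28, 1.22 and 0.58 in ABW and 0.56, 3.18, 1.83 and 0.43 in LBW muscle. LBW replicate 2 was the highest of the 8 arrays in TNNI3 and the second highest in ACTC1. TNNI3 differed by 0.55 ± 0.60 (-0.81 to 1.90) and TNNT2 by 0.38 ± 0.37 (-0.47 to 1.22) between the groups, with adjusted p = 0.719 and 0.685. The 7 accessions of developmental and cardiac genes had a median difference of 0.29. The threshold of the study called 1 of them higher in LBW, where 9.7% of all probes were called in that direction.

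The balance of slow to fast forms was read as the log2 ratio of paired probes on an array, set to 0 at the ABW mean, because 2 probes cannot be compared in absolute terms. For troponin C the ratio of TNNC1 to TNNC2 was 0.26, -1.07, 0.44 and 0.37 in ABW and 0.37, 1.03, -0.48 and 0.80 in LBW muscle, a mean shift of 0.43 with a pooled SD of 0.69. The scaling of an array cancels in such a ratio. Before scaling TNNC2 spanned only 1.09-fold in muscle, so this ratio mainly followed the unscaled TNNC1 signal, whose difference was 0.46. How far the ratio reads a balance of forms was not tested. For troponin I the ratio of TNNI1 to TNNI2 shifted by 0.29 (pooled SD 0.92), and for troponin T the ratio of TNNT1 to TNNT3 by 0.33 (pooled SD 0.31). All 3 shifts were towards the slow form, all 3 sets of groups overlapped, and in each pair 1 or 2 of 4 LBW arrays lay above every ABW array. The extremes were the same animals in the 3 pairs. ABW replicate 2 had the lowest ratio in each (-1.07, -1.24 and -0.43) and LBW replicate 2 the highest (1.03, 1.12 and 0.76).

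That animal was also apart in the wider fibre lists. LBW replicate 2 had the lowest summed level of the 11 fast fibre accessions of the 8 muscle arrays (9.99, the others 10.38 to 10.80), while its summed level of the 8 slow fibre accessions (10.48) was below that of LBW replicate 3 (10.92) and above those of the other arrays. Between the birth weight groups, 8 of the 11 fast fibre accessions lay below 0 (median -0.30) and 7 of the 8 slow fibre accessions above 0 (median 0.34), and no member of either list was called at either threshold. In the list of matrix and connective tissue genes all 7 accessions had values below 0 in LBW muscle (median -1.05). None was called at an adjusted p under 0.05, and 5 were called lower by the threshold of the study, where 2.5% of all probes were called lower. The part of that difference in the troponin values was not tested. For the actins the ratio of ACTC1 to ACTA1 shifted the other way, by -1.98 with a pooled SD of 2.23, and 3 of 4 LBW arrays lay below every ABW array.

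**Figure D3:**
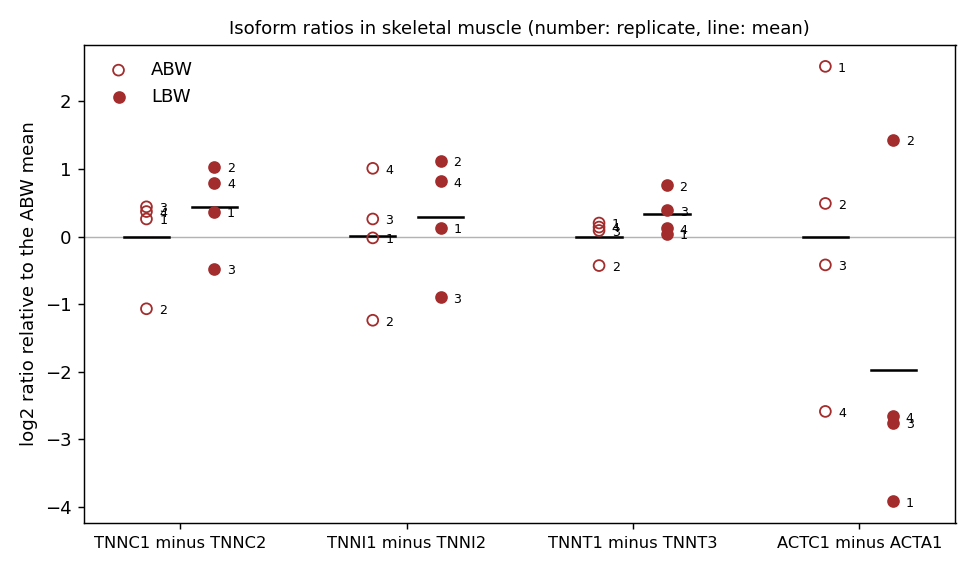
Log2 ratio of paired isoform probes on each skeletal muscle array, relative to the ABW mean. Open circles are ABW and filled circles LBW arrays, numbers are replicates and lines are means. LBW replicate 2 is the highest LBW point in all 4 pairs, and ABW and LBW overlap in each.

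The brightest of these probes varied little in muscle. Before any scaling, TNNC2 read between 300040 and 326590 signal units on the 8 muscle arrays, a 1.09-fold range, which was the smallest of all 17117 probes. The median range of all probes was 2.91-fold. TNNI2 spanned 1.42-fold, TNNT1 1.53-fold, TNNT3 1.66-fold and ACTA1 1.36-fold, and no more than 7.05% of probes had a narrower range than any of these. The 4 troponins were among the 8 brightest probes on every muscle array. No spot was marked as saturated by the scanner software, and whether these probes had reached the top of their response was not tested.

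The 75th percentile, by which each array was divided, spanned 2.24-fold over the same arrays, and scaling widened the range of TNNC2 to 2.35-fold and that of ACTA1 to 2.69-fold. LBW replicate 3, whose 75th percentile was lowest (359.12), had the highest scaled value of the 8 arrays in TNNC2, TNNI2, TNNT1, TNNT2, TNNT3 and ACTA1. Without scaling, an alternative added after the data had been seen, the LBW minus ABW differences were 0.03 ± 0.21 for TNNC2, -0.24 ± 0.22 for TNNI2, 0.15 ± 0.23 for TNNT1, -0.18 ± 0.25 for TNNT3 and -0.10 ± 0.22 for ACTA1. For the dimmer probes they were 0.46 ± 0.42 for TNNC1 (adjusted p = 0.691 in limma) and -2.07 ± 1.23 for ACTC1. They were 0.05 ± 0.54 for TNNI1, 0.27 ± 0.60 for TNNI3 and 0.10 ± 0.27 for TNNT2. The median of all probes was then -0.21.

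**Figure D4:**
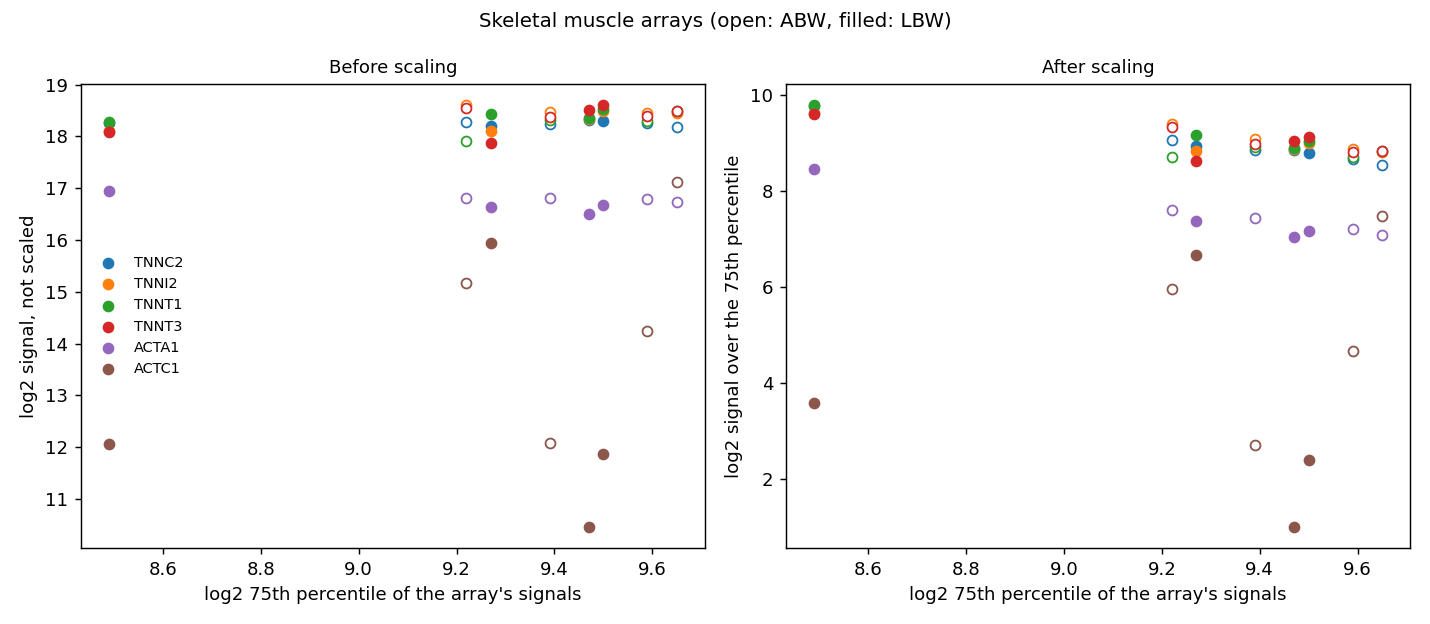
Signal of 5 bright probes and ACTC1 on the 8 skeletal muscle arrays, before (left) and after (right) division by the array's 75th percentile, against the log2 of that percentile. Open circles are ABW and filled circles LBW arrays. On the left TNNC2 stays between 300040 and 326590 units (18.19 to 18.32 on the log2 axis), and on the right the array with the lowest percentile is the highest in the 5 bright probes.

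Under the liver label none of the 10 genes differed with birth weight at an adjusted p under 0.05, as was true of all probes (0%). TNNC2 was the single one called by the threshold of the study, where 3.02% of all probes were called higher in LBW, and the methods' t-test also gave it an unadjusted p under 0.05 (adjusted p = 0.98). TNNC2 read -0.90, -1.23 and -1.02 in ABW and -0.77, -0.33 and -0.21 in LBW, so that all LBW arrays lay above all ABW arrays. LBW replicate 1, at -0.77, shared its slide with the ABW arrays. The difference was 0.61 ± 0.22 (95% interval 0.09 to 1.13), with an adjusted p of 0.813 in limma. Across the alternatives and left-out arrays it stayed between 0.28 and 0.78. TNNT3, also a fast form, read 0.47, 0.48 and 0.61 in ABW and 0.76, 0.63 and 1.33 in LBW, likewise without overlap, and differed by 0.39 ± 0.23 (-0.16 to 0.94). The call by the threshold of the study was made for TNNC2 under 11 of 21 alternatives, and was lost under normexp background correction, spike-in scaling, the spread of all 6 groups, the replicate and slide blocks and slide 3 alone, and without ABW replicate 2 or 3 or LBW replicate 2 or 3. Groups that did not overlap were seen in 2 of the 10 genes and in 12% of all probes.

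Of the slow forms under this label, TNNT1 varied most between arrays. TNNI1 was not well above background on any of them and differed by -0.03 ± 0.23. TNNT1 read -1.07, -1.87 and -0.79 in ABW and -3.34, -1.06 and 0.82 in LBW, with a mean difference of 0.05 ± 0.98 and a range of 4.16 units among the LBW arrays. Its value was -2.10 on the slide that held LBW replicate 1 with the ABW arrays (adjusted p = 0.59 in limma), where the threshold of the study called it. TNNC1 differed by 0.83 ± 0.58 and ACTC1 by 0.75 ± 0.49, with adjusted p = 0.91 and 0.909.

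Under the umbilical cord label none of the 10 genes was called with birth weight at an adjusted p under 0.05 (0.625% of all probes were) and none by the threshold of the study (3.66% of all probes were called higher in LBW), with limma or the methods' t-test. None had groups fully apart, against 5.85% of all probes. The largest positive difference, 1.06 ± 0.53 for TNNI1, came from a probe that was not well above background on any of these arrays. TNNT3 differed by -0.68 ± 0.39 (-1.55 to 0.19) and TNNT2 by -0.66 ± 0.65 (-2.10 to 0.79), with adjusted p = 0.624 and 0.786.

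One array of this label read higher than the rest in most of the 10 genes. In ABW replicate 2, ACTA1 was 1.74 where the other ABW arrays read -6.40, -7.52 and -6.71. TNNC2 was 0.40 against -3.45, -3.47 and -3.56, and TNNT1 was -0.40 against -4.66, -5.18 and -5.35. In all, 8 of the 10 genes were higher in ABW replicate 2 than in the other 3 arrays of the group, as were 23.6% of all probes. TNNI3 and TNNT2 were not.

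Of the wider lists, ABW replicate 2 exceeded the other ABW arrays in 5 of 11 fast fibre, 5 of 8 slow fibre and 9 of 15 shared sarcomere accessions. It did so in 6 of 13 hepatocyte, 2 of 5 smooth muscle, 2 of 7 matrix and 2 of 7 developmental and cardiac accessions as well. The fast fibre share was thus no larger than the hepatocyte share, but the sizes differed. Where ABW replicate 2 was higher, its excess over the highest other array was 2.54 to 7.09 for fast fibre accessions. The excess was 1.03 to 5.82 for slow fibre and 0.26 to 5.57 for shared sarcomere accessions. It was 0.16 to 0.43 for hepatocyte, 0.51 to 0.86 for smooth muscle, 0.03 to 0.08 for matrix and 0.13 to 0.30 for developmental and cardiac accessions. The fast fibre accession with the largest excess was well above background on 2 of the 8 arrays of this label. In the fast fibre accessions where ABW replicate 2 was not higher, its difference from the highest other array was -1.70 to -0.68. Over whole lists, the median of that difference was 1.25 for slow fibre, 0.30 for shared sarcomere and -0.68 for fast fibre. It was 0 for hepatocyte, -0.46 for smooth muscle, -0.29 for matrix and -0.28 for developmental and cardiac accessions, where all probes had -0.40. The 75th percentile of ABW replicate 2, 512.56, was the lowest of the 4 ABW arrays. A smaller shift in the same genes was seen in LBW replicate 1, where ACTA1 was -2.0 against -5.85, -5.32 and -5.95, TNNC2 was -2.13 against -3.16, -3.45 and -3.36, and TNNT1 was the highest of its group at -2.99. The 75th percentile of that array, 315.49, was the lowest of all 22. Whether muscle RNA was present in these samples was not tested. Without ABW replicate 2, the LBW minus ABW differences on the arrays labelled umbilical cord went from -0.06 to 2.09 for ACTA1, from -0.51 to 0.47 for TNNC2 and from -0.16 to 1.0 for TNNT1. None of these was called at an adjusted p under 0.05, and ACTA1 was called by the threshold of the study.

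Taking the mean of the 3 labels, TNNC1 differed by 0.64 ± 0.25 between LBW and ABW (adjusted p = 0.273 in limma), the one of the 10 genes with an unadjusted p under 0.05, as it had under 29 of 33 alternatives. None was called after adjustment, where 0.888% of all probes were, and the methods' two-way test gave TNNC1 an unadjusted p under 0.05. TNNC1 had a positive difference under each label, 0.74, 0.83 and 0.34. The difference between labels in the effect of birth weight was not detected for any of the 10, with the lowest adjusted p of 0.566 in limma for TNNT3 and 1.01% of all probes called. ACTC1, whose values were -1.79 in muscle and 0.75 and 0.40 under the other labels, had an adjusted p of 0.753.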

How the data were processed

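RNA of 22 samples was hybridised to Agilent arrays for the rhesus macaque, with 1 colour. The intensities deposited by the authors are, per the file headers, signals of Feature Extraction (10.1.1.1, and 10.5.1.1 for 1 slide) after background subtraction, unscaled between arrays. A second table holds the authors' log2 values, which the methods describe as normalized to the 75th percentile and transformed to a baseline. Its values are centred per probe within a tissue.

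Of each probe's 2 spots, those without an outlier flag were averaged, or both where both were flagged. The mean was put on a log2 scale, less the log2 of the array's 75th percentile. Probes were kept when well above background on 75% or more of the arrays in at least 1 of the 6 groups (17117 of 20217). LBW and ABW were compared within each label, and labels in a fit of all groups, with limma 3.58.1 (statmod 1.5.0, R 4.3.3) and Benjamini-Hochberg adjustment over all 17117 probes. Errors of differences are SE and intervals 95%. The scripts were tested on simulated data in which set genes had known fold changes.

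The 10 genes were named through the human RefSeq accessions of the array, and genes of the other lists are given by accession. The reference gene table (T2T-MFA8v1.1) matched 0 of 19376 array accessions. All 10 genes are described, and the other lists by counts. The genes and lists were chosen with earlier results of these data known. Nothing in the labels ties an array to an animal, and p-values measure the spread between these samples. The number of arrays limits the precision. Alternatives covered background correction, scaling, filters, dim signals, outlier spots, accession averages, the deposited values, the tests of the methods, the spread over all groups, slide and replicate blocks, and leaving out each array. Probe sequences and qRT-PCR data were not used.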

Additional observations from a re-analysis of the deposited data

Results flagged for a closer look

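In groups of 4 arrays, the highest or lowest value was set apart when its gap to the nearest array exceeded the share of the group's range that chance gives in 1 group of 20. This held for 6 of the 40 groups of 4 (10 genes in 4 groups), with the shares of the range given here.

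On the arrays labelled umbilical cord, ABW replicate 2 was far above its group in TNNC2 (0.40, a gap of 0.971 of the range), TNNT1 (-0.40, 0.861) and ACTA1 (1.74, 0.879). LBW replicate 1 stood above its group in ACTA1 (-2.0, 0.840). In skeletal muscle, LBW replicate 3 was set apart in TNNC2 (9.78, 0.858), the gene whose unscaled signal varied least, and in TNNT2 (5.02, 0.959), and had the lowest 75th percentile of the muscle arrays.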

How the results depend on the processing

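The number of the 10 genes called at an adjusted p under 0.05 stayed within 1.5 times its value under the alternatives run for each comparison, with 1 exception. Between the labels umbilical cord and liver, 2 genes rather than 6 were called within the slide that held both (2 arrays of each, so fewer samples). There the arrays labelled umbilical cord were all ABW and those labelled liver all LBW. Over the 10 genes in 8 comparisons, 2179 of 2320 values kept their direction and their side of that threshold, 119 changed sign, 16 became called and 6 ceased to be called. No value that changed sign was called before or after. The sign changes were 20 of birth weight in muscle, 25 under the liver label, 20 under the umbilical cord label, 40 in the mean of the labels and 14 between the labels umbilical cord and liver. By the threshold of the study, 0 rather than 1 gene was called with birth weight in muscle under median, quantile and spike-in scaling, no scaling, the spread of all 6 groups, the methods' t-test and the replicate block, and 0 to 1 with an array left out. Under the liver label 0 rather than 1 was called under normexp background correction, spike-in scaling and the spread of all 6 groups, and 0 to 2 with an array left out. Under the umbilical cord label, where 0 had been called, the spread of all 6 groups called 2, and the replicate block, the random slide block and the ABW arrays of slide 6 alone 1 each, and 0 to 2 were called with an array left out. Against a median of 0.07 over all probes in muscle, spike-in scaling gave -0.39 and no scaling -0.21.

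In muscle the LBW minus ABW differences under spike-in scaling were -0.15 for TNNC2, -0.13 for TNNI1, -0.42 for TNNI2, -0.03 for TNNT1, -0.08 for TNNT2, -0.35 for TNNT3 and -0.27 for ACTA1. Without scaling TNNI2 was -0.24, TNNT3 -0.18 and ACTA1 -0.10. TNNI2 was -0.05 under median scaling and -0.29 under quantile normalization, and TNNT3 -0.15 under the latter. Under the liver label, TNNI1 was 0.00 under quantile normalization and 0.13 under spike-in scaling, where TNNI2 was 0.09 and ACTA1 0.06. With slide as a fixed block, and on slide 3 alone, TNNI1 was 0.02, TNNT1 -2.10 and ACTC1 -0.06. Under the umbilical cord label, TNNT1 was 0.26 under normexp background correction, ACTA1 0.01 under median scaling and 0.15 under quantile normalization, and TNNC1 -0.09 and ACTC1 -0.03 under spike-in scaling. With the ABW arrays of slide 4 alone TNNI3 was 0.12, and with those of slide 6 alone TNNC2 was 0.49, TNNT1 1.21 and ACTA1 2.33. Between the labels umbilical cord and liver TNNC1 was 0.15 under normexp background correction and 0.54 under spike-in scaling. The causes were not tested.

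Leaving out each array in turn changed the sign in these ranges. In muscle TNNI2 ran from -0.15 to 0.15, TNNI3 from -0.02 to 0.90, TNNT2 from -0.02 to 0.52, TNNT3 from -0.07 to 0.26 and ACTA1 from -0.14 to 0.34. Under the liver label TNNI1 ran from -0.19 to 0.16, TNNI2 from -0.59 to 0.21, TNNI3 from -0.59 to 0.09, TNNT1 from -0.96 to 1.12, TNNT2 from 0.00 to 0.36 and ACTA1 from -0.62 to 0.19. On those labelled umbilical cord TNNC2 ran from -0.85 to 0.47, TNNI3 from -0.32 to 0.23, TNNT1 from -0.65 to 1.0 and ACTA1 from -0.99 to 2.09. Between the labels umbilical cord and liver TNNC1 ran from -0.21 to 0.29.

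Within a label, same-numbered ABW and LBW arrays correlated from -0.216 to 0.304 in their deviations from the group mean. Same-numbered arrays of different labels, within a birth weight group, correlated from -0.287 to 0.158. With so few arrays per group, these values cannot decide whether equal numbers mark the same animal. With the replicate number as a block 0 genes were called at an adjusted p under 0.05 in each birth weight comparison, and 8, 9 and 6 between labels (muscle over liver, muscle over umbilical cord, and between these 2).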

Other observations

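In the reference gene table, 6 of the 8 troponin genes lie in close pairs. TNNI3 and TNNT1 have 0 protein-coding genes between them, TNNI1 and TNNT2 have 1 and TNNI2 and TNNT3 have 2. The neighbours TNNI2 and TNNT3, both fast, had differences of 7.72 and 8.32 between muscle and the arrays labelled liver. Between muscle and the arrays labelled umbilical cord their differences were further apart, at 7.97 and 10.17. Against the arrays labelled liver, TNNI1 and TNNT2 did not share theirs, with at least 6.64 for TNNI1 in the main processing and -0.19 for TNNT2. In that comparison TNNI3 and TNNT1 differed by 3.72 and 10.22. These are values side by side, and no test was made of neighbouring genes.

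The fast troponin I gene TNNI2 was well above background on all 14 arrays outside muscle, at 0.32 to 1.91, and so above the 75th percentile of each array. TNNI1 was dim on the same arrays, and the labels of these tissues went against their markers.

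Hepatocyte accessions were also seen in muscle, where their summed level ranged from -1.52 to 5.28 and 4 to 11 of 13 were well above background.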
